A study of Neurospora crassa with 54 samples.

Results

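The loss of SET-7 in a strain that already lacked the histone variant H2A.Z was examined in mycelium of the filamentous fungus Neurospora crassa. Libraries labelled ∆hH2Az;∆set-7 (the double deletion) were set against libraries labelled ∆hH2Az, 3 of each, and these 6 were selected by their labels from the 54 samples of the series. The other RNA-seq libraries, 3 wild type (WT) and 3 ∆set-7, gave the same deletion in a strain that keeps H2A.Z; the remaining 42 samples were of chromatin and were not analysed here. Both ∆hH2Az and ∆hH2Az;∆set-7 lack hH2Az, the gene for H2A.Z, so SET-7 is the labelled difference between them. The mycelium of every strain had grown for 12 h under constant light at 30 °C, in VMM with 2% glucose, and poly(A) RNA was sequenced. The table covered 10398 genes on 7 chromosomes, of which 8372 had enough reads to be tested and 2026 did not. The sample names carry 1 strain code per genotype, and the labels do not say whether each is a single isolate or that replicates were separate cultures. The p-values therefore measure the spread between these libraries, which may be technical.

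SET-7 is the catalytic subunit of Polycomb repressive complex 2 (PRC2), which places methyl groups on lysine 27 of histone H3. In Neurospora this mark covers broad domains, many of them next to the chromosome ends, and genes beneath it are mostly silent. H2A.Z is a variant of histone H2A that chromatin remodellers of the SWR family exchange into nucleosomes. A strain lacking both proteins shows which genes still respond to the loss of the methyltransferase when the variant is gone.

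Total counts were between 13738376 and 19720473 in the 6 libraries, and the most abundant gene took 2.25% to 4.26% of them. set-7 (NCU07496, assembly NC12, chromosome I, 408524 to 415263, minus strand) was at 8.32, 8.88 and 12.5 CPM (read counts scaled to library size) in ∆hH2Az and at 5.15, 3.17 and 3.13 CPM in ∆hH2Az;∆set-7. The groups did not overlap, but reads remained in the double deletion. The change of -1.37 (edgeR adjusted p 0.0319, SE 0.277) lay near the threshold and was not called in 7 of the 12 fits that left out 1 library, those without replicate 1 or 2 of the other 3 strains or replicate 2 of the double deletion. Counts are per whole gene, so they cannot show how much of a gene was deleted. hH2Az (NCU05347, which overlaps NCU05345 and NCU05346) was at 16.7, 17.9 and 32.5 CPM in ∆hH2Az and at 37.8, 35.2 and 23.1 CPM in ∆hH2Az;∆set-7, against 65.6, 76.9 and 74.9 CPM in WT. Replicate 3 stood apart in both groups, and in each it was nearer to replicates 1 and 2 of the other group in hH2Az. The labels give these libraries another tag than the 920 of replicates 1 and 2, and its meaning is not given. Across genes, the Pearson r of log2 CPM with replicates 1 and 2 of its own group was 0.937 and 0.943 for ∆hH2Az replicate 3, and its r with those of the double deletion was 0.95 and 0.954. For replicate 3 of the double deletion, r was 0.932 and 0.933 with its own group and 0.935 and 0.945 with ∆hH2Az. The level of set-7 in both replicate 3 libraries went with their labels, as did the rises near chromosome ends described with the results by tag. Whether these libraries are the strains their labels name was not tested further, and the groups are used as labelled. Results are therefore also given for the libraries tagged 920 alone.

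With SET-7 lost in the absence of H2A.Z, more genes were called higher than lower. Of the 8372 genes tested, 1.45% passed an edgeR adjusted p of 0.05: 94 were higher in the double deletion (1.12%) and 27 were lower (0.323%), set-7 among the latter. The rises were also the larger changes, with 90 of at least 2-fold, 47 of at least 8-fold and 23 of at least 32-fold, against 24 falls of at least 2-fold and 2 of at least 8-fold. The median log2 fold change was 2.98 over the higher genes and -1.40 over the lower ones, against -0.006 over all genes tested. Values of the 3 libraries of one group lay apart from those of the other for all 121 called genes and for 983 (11.7%) of the genes tested.

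The higher genes started from a low level in ∆hH2Az, which the choice of genes low in that strain partly fixes. Their median level in ∆hH2Az was 0.627 CPM per kb of exon, against 10.6 CPM per kb for all genes tested, and 54 of the 94 (57.4%) were below 1 CPM per kb, against 10.4% of all genes. With SET-7 also lost, their median level was 6.86 CPM per kb and 6 (6.38%) were below 1 CPM per kb. In the other strains, which entered the fit through its filter and spread only, the median level of the same 94 genes was 1.65 CPM per kb in WT and 6.53 CPM per kb in ∆set-7. Summed over the 94 genes, expression was 585, 569 and 684 CPM in ∆hH2Az and 3020, 2620 and 2780 CPM in the double deletion. WT had a summed level of 2380, 2510 and 1990 CPM and ∆set-7 one of 3840, 4020 and 3640 CPM. That ∆hH2Az had the lowest sum is partly fixed by the same choice. So is the count of 74 of the 94 genes with a lower mean in ∆hH2Az than in WT. In this sum the double-deletion libraries lay between WT and ∆set-7, but abundant genes weigh most in it. The median over the 94 genes was 12.4, 9.94 and 12.7 CPM in the double deletion and 12.6, 13.6 and 12.7 CPM in ∆set-7, and 46 of the 94 had the higher mean in the double deletion. The genes were short for this genome, with a median exon length of 1606 bases against 2134 bases for all genes tested. None of them was a noncoding gene, against 1.29% of all genes tested, and 10 (10.6%) overlapped another annotated gene, against 24.5%.

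The count of called genes depended on single libraries. It was 62, 73 and 473 without ∆hH2Az replicate 1, 2 or 3 and 74, 78 and 362 without ∆hH2Az;∆set-7 replicate 1, 2 or 3. The libraries tagged 920 gave 2478 calls, 1062 higher and 1416 lower, and among them were all 121 genes. For the higher genes the median log2 fold change was 3.04 in the 920 libraries, and the median log2 difference between the single libraries of the other tag was 2.78. For the lower genes these medians were -1.49 and -1.0. All these libraries entered the calls, so the sign of these medians follows from the choice of genes. The 920 calls mostly went the other way in the replicate 3 libraries: of 2460 with a value there, 32.4% kept their sign, while 39.9% of all genes did. Outside the 121, 28.9% of 2339 kept it. Leaving out the genes called with the replicate 3 libraries in the fit partly fixes that lower share.

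The rises were concentrated near the chromosome ends. Of the 94 higher genes, 70 (74.5%, exact binomial 95% interval 64.4% to 82.9%, for counting error only) had their midpoint within 200 kb of an end, where 622 of the 8372 tested genes (7.43%) lay. Only 1 of the 27 lower genes (3.70%) was there. The share of tested genes that were higher fell from 35 of 83 (42.2%) within 25 kb to 16 of 88 (18.2%) between 25 and 50 kb and 16 of 165 (9.70%) between 50 and 100 kb. Farther in it was 3 of 286 (1.05%) between 100 and 200 kb, 8 of 278 (2.88%) between 200 and 300 kb, 13 of 505 (2.57%) between 300 and 500 kb and 3 of 6967 (0.0431%) beyond 500 kb.

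The shift at the ends was not limited to called genes. Within 25 kb, 77 of the 83 tested genes (92.8%) had a positive log2 fold change, against 49.2% of all genes tested, and their median was 2.07. The median fell to 0.74 between 25 and 50 kb, 0.26 between 50 and 100 kb and -0.03 beyond 500 kb. The median level of these 83 genes was 3.73, 4.19 and 1.54 CPM in the ∆hH2Az libraries and 17.4, 16.7 and 28.2 CPM in the double-deletion libraries. It was 6.07, 4.77 and 3.35 CPM in WT and 18.8, 20.3 and 19.9 CPM in ∆set-7. The gradient was present within each tag: the median log2 fold change within 25 kb was 1.70 in the 920 libraries, and the median log2 difference was 2.75 between the replicate 3 libraries, against -0.02 and -0.10 beyond 500 kb. With the 920 libraries alone, 208 of the 1062 genes called higher (19.6%) lay within 200 kb of an end, against 7.33% of the genes tested there. In fits that left out 1 library the near-end share of the higher genes was between 52.3%, without ∆hH2Az;∆set-7 replicate 3, and 87.7%.

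**Figure D1:**
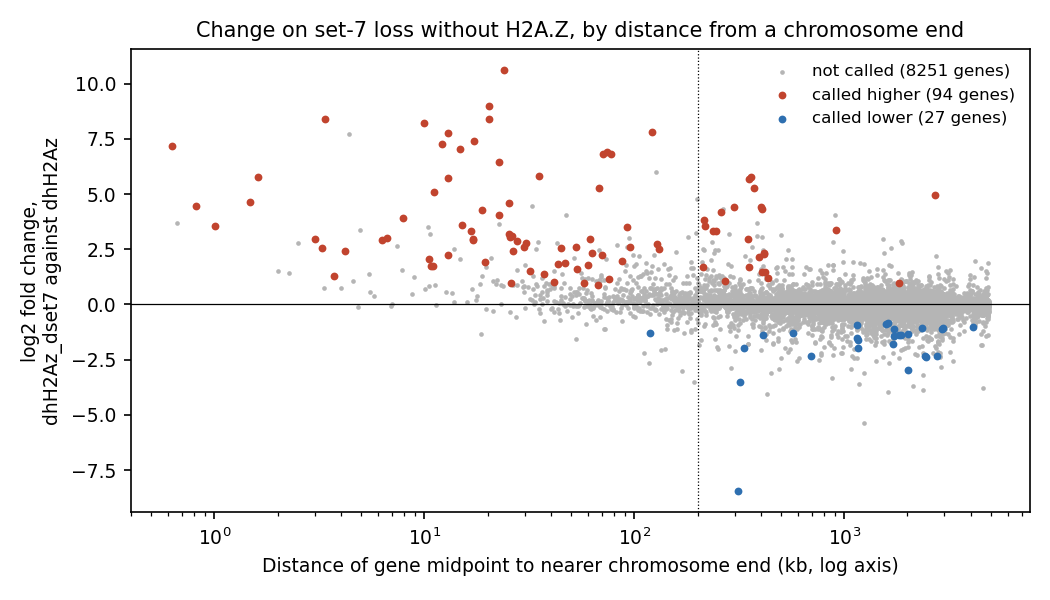
Log2 fold change in ∆hH2Az;∆set-7 against ∆hH2Az for each tested gene, plotted by the distance of its midpoint from the nearest chromosome end (log axis), with called genes coloured by direction. Of the genes within 25 kb, 42.2% were higher, against 0.0431% beyond 500 kb. Of the 27 lower genes 22 lie beyond 500 kb, as do 6967 of the 8372 tested genes.

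A higher gene was found at 13 of the 14 chromosome ends. The left end of chromosome II held the most, 14 of 42 genes tested within 200 kb. The right ends of chromosomes V, III and IV had 9 of 59, 8 of 49 and 6 of 44, and the left end of chromosome III had 6 of 40. At the left end of chromosome V no gene of 32 was called, and their median log2 fold change was -0.07.

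Most higher genes had another one as a neighbour. Allowing at most 1 uncalled tested gene between them, 68 of the 94 fell into 20 runs, while the lower genes formed 2 runs with 4 genes. The longest run had 9 genes over 29.3 kb at the left end of chromosome II (8927 to 38253), with log2 fold changes between 1.37 and 8.24. The next had 8 genes over 23.6 kb at the right end of chromosome V (6409845 to 6433447), between 3.06 and 10.60. A pair of runs had 5 genes each, over 27.02 kb at the right end of chromosome II (4443601 to 4470618) and over 25.98 kb at the right end of chromosome III (5242495 to 5268474). The chromosome VII left end held 4 neighbouring genes from 950 to 8885.

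**Figure D2:**
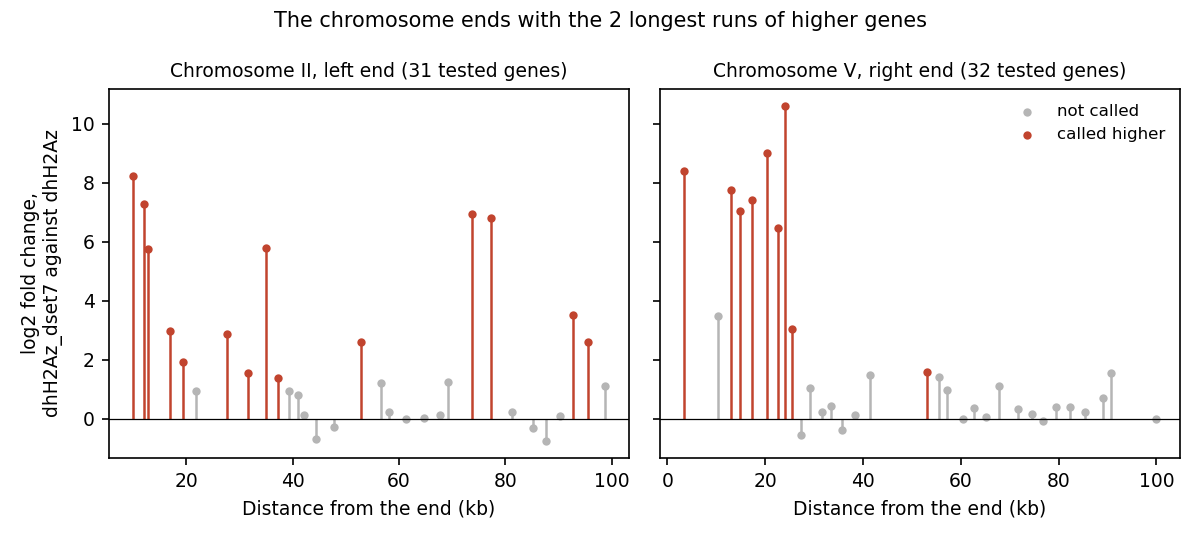
Log2 fold change of each tested gene by its distance from the chromosome end, for the ends that hold the longest runs of higher genes. Called genes stand in blocks: 9 neighbours at the left end of chromosome II rose by 1.37 to 8.24 on the log2 scale and 8 at the right end of chromosome V by 3.06 to 10.60.

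The 14 largest rises among genes of at least 1 CPM all lay near a chromosome end, were called in each of the 12 fits that left out a library, and were also called in ∆set-7 against WT. Of these, 6 belonged to the run at the right end of chromosome V. NCU07152 (6411400 to 6412219, 24.1 kb from the end) went from 0.0478, 0.102 and 0.0959 CPM in ∆hH2Az to 181, 144 and 89.8 CPM in the double deletion. It had no read in the 3 WT libraries and 17.3, 20.3 and 18.3 CPM in ∆set-7, so the double deletion held the highest levels of the 4 strains. Its log2 fold change was 10.60 (edgeR adjusted p 1.39e-06), with no standard error obtained. NCU07150 (6414593 to 6416401) went from 0, 0.306 and 0.720 CPM to 234, 183 and 120 CPM, and it was at 151, 218 and 115 CPM in ∆set-7. Against ∆hH2Az it rose by 9.0 on the log2 scale (edgeR adjusted p 9.6e-05, SE 0.756), and it was 8.41 and 10.16 without ∆hH2Az replicate 1 or 3.

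A further 4 genes of this run had 1 or 2 reads over the ∆hH2Az libraries. NCU07144 (6431522 to 6433447, 3.4 kb from the end) had 2 reads over the ∆hH2Az libraries and 663 over the double-deletion libraries, a ratio of 408 (95% counting interval 112.6 to 3380, edgeR adjusted p 4.37e-06). The double deletion had 12.3, 12.4 and 15.6 CPM of it and ∆set-7 had 22.0, 21.7 and 20.5 CPM. NCU07147, NCU07149 and NCU07148 had 2, 2 and 1 reads in ∆hH2Az and 412, 324 and 149 in the double deletion. These are ratios of 254 (69.8 to 2103), 200 (54.8 to 1655) and 184 (32.4 to 7299), with 95% counting intervals in parentheses. In contrast to NCU07152, these 3 neighbours were lower in the double deletion than in ∆set-7: NCU07149 had 5.15, 4.28 and 11.0 CPM in the former and 61.1, 51.0 and 52.9 CPM in the latter. The end of chromosome V therefore held genes that rose in both backgrounds to levels with no common order. Outside the 14, the run also held NCU07151 and NCU17053, the latter at 5.07, 4.54 and 23.9 CPM in ∆hH2Az and 117, 75.1 and 87.1 CPM in the double deletion.

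The run at the left end of chromosome II began with the pair NCU09634 and NCU09633. NCU09634 (8927 to 11029) was at 0.0956, 0.102 and 0.0959 CPM in ∆hH2Az and at 27.8, 26.96 and 40.6 CPM in the double deletion. Its log2 fold change was 8.24 (edgeR adjusted p 6.94e-07, SE 0.456). NCU09633 (11642 to 12594) was at 0.239, 0.408 and 0.720 CPM and at 89.6, 56.6 and 67.0 CPM, a log2 change of 7.26 (edgeR adjusted p 2.43e-06, SE 0.399). It overlaps its neighbour NCU09632. By the counting tool's defaults, reads over both genes were dropped, so transcription of the shared stretch was not measured. NCU09632 itself had 0.860, 0.919 and 1.68 CPM in ∆hH2Az and 72.8, 50.8 and 62.9 CPM in the double deletion. The far end of the run changed less: NCU09621 had 24.9, 22.3 and 44.6 CPM in ∆hH2Az and 79.7, 69.1 and 87.7 CPM in the double deletion, and its call was lost without ∆hH2Az replicate 1 or 2 or ∆hH2Az;∆set-7 replicate 1.

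A pair of genes farther along the same arm were among the largest rises too. NCU09604 (73202 to 74342, 73.8 kb from the end) went from 0.813, 1.63 and 0.336 CPM to 103, 74.7 and 160 CPM, a log2 change of 6.92 (edgeR adjusted p 0.000325, SE 0.626), which was 7.59 without ∆hH2Az replicate 2. NCU09603 (76425 to 78257) went from 0.0956, 0.051 and 0.048 CPM to 6.06, 4.70 and 13.4 CPM, a log2 change of 6.79 (edgeR adjusted p 0.000589, SE 0.970). No gene name or product is known for either from the tables used.

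Genes with named products stood in the runs at the right ends of chromosomes III and II. On chromosome III the run joined a pair of genes for enzymes that act on plant cell wall polysaccharides with NCU08756, 1 of the largest rises. NCU08756 (5252358 to 5254295, 20.4 kb from the end) was at 0.143, 0.204 and 0 CPM in ∆hH2Az and at 27.6, 32.5 and 61.7 CPM in the double deletion, against 5.75, 5.81 and 10.7 CPM in ∆set-7. Its log2 fold change was 8.38 (edgeR adjusted p 7.31e-05, SE 0.837), and 9.0 without ∆hH2Az replicate 2. gh61-5 (NCU08760, 5242495 to 5244087), of the lytic polysaccharide monooxygenase family, rose from 5.64, 6.28 and 4.94 CPM to 28.7, 26.1 and 61.8 CPM (log2 fold change 2.79, edgeR adjusted p 0.00126, SE 0.337). gh3-3 (NCU08755, 5254966 to 5258478), of the β-glucosidase family, rose from 1.15, 0.868 and 0.863 CPM to 9.04, 9.36 and 3.61 CPM (log2 fold change 2.93, edgeR adjusted p 0.00171, SE 0.377).

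The last gene of chromosome II was itself a gene of the histone methyltransferase list. This gene, set-6 (NCU09495, 4468613 to 4470618), encodes a SET-domain protein, and its end was taken as the right chromosome end. It was at 5.45, 3.68 and 0.863 CPM in ∆hH2Az and at 33.5, 31.9 and 53.4 CPM in the double deletion. The log2 fold change was 3.57 (edgeR adjusted p 0.0031, SE 0.475), and in ∆set-7 against WT it was 2.85 (edgeR adjusted p 0.0141). Its 4 neighbours in the run, NCU11088, NCU09490, NCU09491 and NCU09494, rose by 2.42 to 4.27 on the log2 scale.

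The remaining large rises lay at other ends. NCU05903 (4234257 to 4235509) is the last annotated gene of chromosome VII, and its end was taken as the right chromosome end. It went from 0.191, 0.255 and 0.0959 CPM to 27.4, 18.9 and 36.0 CPM, a log2 change of 7.19 (edgeR adjusted p 6.95e-06, SE 0.509). NCU05173 (chromosome IV, 5878979 to 5881084, 71.3 kb from the right end) went from 0, 0.102 and 0.0959 CPM to 9.76, 7.24 and 7.78 CPM, a log2 change of 6.83 (edgeR adjusted p 7.78e-05, SE 0.806). NCU08630 (chromosome I, 9649955 to 9651509, 121.4 kb from the right end) had 1 read in ∆hH2Az and 257 in the double deletion, a ratio of 317 (95% counting interval 56.3 to 12550). As the rule for naming these 3 genes requires, each double-deletion library was above each ∆hH2Az library.

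**Figure D3:**
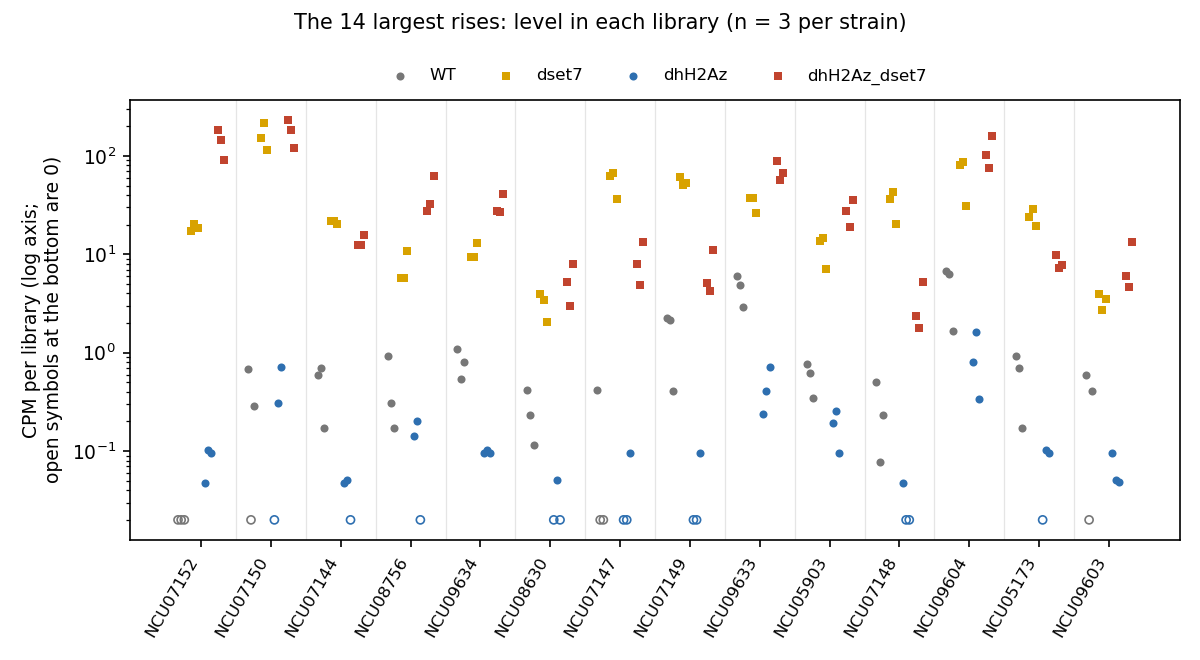
CPM (log axis) of the 14 largest rises in each library of the 4 strains, 1 point per library. In every gene the ∆hH2Az points lie at or below 1.63 CPM. The double-deletion points lie above them, as the choice of these genes requires. The place of ∆set-7 relative to the double deletion differs from gene to gene.

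Away from the ends, 24 higher genes were found, 21 of them between 200 and 500 kb from an end and 3 farther in. The genes next to set-7 were among them and were picked out after their values were seen. NCU07497, beside set-7 on chromosome I, went from 0.717, 0.766 and 1.25 CPM to 20.5, 21.3 and 12.6 CPM, a log2 change of 4.31 (edgeR adjusted p 5.51e-05, SE 0.340). Next to NCU07497, on the side away from set-7, mus-40, named for mutagen sensitivity, rose by 1.45 (edgeR adjusted p 0.0101, SE 0.243) from 18.3, 16.7 and 17.4 CPM to 50.9, 56.7 and 36.0 CPM; the call was lost without ∆hH2Az replicate 1 or 2 or ∆hH2Az;∆set-7 replicate 2. In ∆set-7 against WT, mus-40 had a log2 fold change of 0.03, but its difference between the 2 contrasts was not called (edgeR adjusted p 0.261). NCU07497 was called higher in ∆set-7 against WT, at 2.33 (edgeR adjusted p 0.00376). Across set-7, NCU07495 went from 34.5, 39.9 and 66.3 CPM to 133, 110 and 150 CPM, and its call was lost without ∆hH2Az replicate 1 or 2 or ∆hH2Az;∆set-7 replicate 1. It too was called higher in ∆set-7 against WT, at 2.15 (edgeR adjusted p 0.0029).

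A run of 4 genes stood inside chromosome V (6064588 to 6088614), also chosen after its values were seen. Its largest change was in NCU07249, from 0.621, 0.408 and 0.0959 CPM to 16.9, 15.4 and 27.2 CPM, a log2 change of 5.70 (edgeR adjusted p 5.77e-05, SE 0.470). The 3 genes beyond 500 kb were mtr, NCU01348 and NCU09590. mtr, the permease for neutral amino acids, was at 112, 120 and 154 CPM in ∆hH2Az and at 256, 280 and 221 CPM in the double deletion, all below the 751, 784 and 617 CPM of WT. Its log2 fold change of 0.97 (edgeR adjusted p 0.0478, SE 0.211) was near the threshold, and the call was lost in 9 of the 12 fits that left out a library, with an edgeR adjusted p of up to 0.279. It held only without replicate 3 of ∆hH2Az, ∆set-7 or ∆hH2Az;∆set-7. NCU01348 (3730157 to 3732570 on chromosome V) was at 0.956, 1.84 and 0.576 CPM in ∆hH2Az and at 56.5, 44.1 and 3.75 CPM in the double deletion, against 387, 448 and 240 CPM in WT. It rose by 4.95 (edgeR adjusted p 0.0087, SE 0.742), and the call was lost without ∆hH2Az replicate 1 (edgeR adjusted p 0.064).

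The 27 lower genes were of another kind: genes expressed in ∆hH2Az, most of which lost part of their level. Beyond 500 kb from an end lay 22 of them and 6967 of the 8372 genes tested, so their position was close to that of all genes. Without set-7, their median level was 26.2 CPM per kb of exon in ∆hH2Az and 10.7 CPM per kb in the double deletion. In WT it was 10.1 CPM per kb. The mean in ∆hH2Az was above that in WT for 22 of the 26 genes, against 50.6% of all genes tested, a count that the choice of genes high in ∆hH2Az partly fixes. The sum over the 26 genes was 2150, 1890 and 1750 CPM in ∆hH2Az and 723, 614 and 867 CPM in the double deletion, against 1060, 1080 and 1180 CPM in WT. The order of the first 2 strains in this sum follows from how the genes were chosen. Of the 27, 9 (33.3%) overlapped another gene, against 24.5% of all genes tested.

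NCU09968 (chromosome VI, 309546 to 315476) fell most. It was at 25.2, 23.2 and 23.7 CPM in ∆hH2Az and at 0, 0.0529 and 0.139 CPM in the double deletion. That is 1476 reads against 3, a level 399 times lower (95% counting interval 136.4 to 1939, edgeR adjusted p 1.36e-05). WT had 0.0844, 0 and 0 CPM and ∆set-7 had 0, 0.0683 and 0 CPM, so among the 4 strains the gene was seen above a trace in ∆hH2Az alone. It overlaps NCU09969, which fell by 3.51 on the log2 scale (edgeR adjusted p 0.0089, SE 0.652), a call lost without ∆hH2Az replicate 1 or ∆hH2Az;∆set-7 replicate 2.

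The 10 largest falls were ranked among genes of at least 1 CPM. Of the 9 besides NCU09968, a pair of adjacent genes on chromosome I held in every fit that left out a library. NCU02126 (1159012 to 1160654) was at 106, 81.3 and 68.1 CPM in ∆hH2Az and at 29.2, 20.4 and 16.3 CPM in the double deletion. This is a log2 change of -1.96 (edgeR adjusted p 0.00208, SE 0.259). NCU02127 (1156535 to 1158645) was at 89.6, 61.8 and 69.4 CPM and at 31.6, 22.8 and 18.9 CPM, a log2 change of -1.59 (edgeR adjusted p 0.00345, SE 0.228). Outside these 10, NCU09553 also held in all 12 fits. It was at 41.2, 34.7 and 40.5 CPM in ∆hH2Az and at 16.5, 11.6 and 16.2 CPM in the double deletion (log2 fold change -1.40, edgeR adjusted p 0.00522, SE 0.213). When only the 6 libraries compared were fitted, NCU02126 was called (edgeR adjusted p 0.0481). NCU02127 and NCU09553 were not called in that fit (edgeR adjusted p 0.0762 and 0.0674).

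Several other large falls rested on replicates 1 and 2, with smaller differences between the replicate 3 libraries. neg-1 (NCU04395), an endo-β-1,6-glucanase gene, was at 50.4, 51.1 and 17.3 CPM in ∆hH2Az and at 5.34, 4.55 and 12.7 CPM in the double deletion, so replicate 3 of the 2 groups lay close together. It changed by -2.40 (edgeR adjusted p 0.0207, SE 0.434), and by -3.0 without ∆hH2Az;∆set-7 replicate 3. NCU04487 (chromosome IV, 3199564 to 3201537) was at 163, 146 and 77.3 CPM and at 17.5, 12.8 and 47.1 CPM, with a log2 change of -2.32 (edgeR adjusted p 0.018, SE 0.411) that was -3.09 without ∆hH2Az;∆set-7 replicate 3. Both calls were lost without replicate 1 or 2 of either group, with edgeR adjusted p up to 0.104 and 0.098. NCU06895 (chromosome VII, 692576 to 694655) was at 41.4, 29.8 and 13.3 CPM in ∆hH2Az and at 6.19, 2.75 and 8.13 CPM in the double deletion, against 0.253, 0.462 and 0.289 CPM in WT. NCU03534 (chromosome II, 333578 to 334814) was at 106, 105 and 53.9 CPM in ∆hH2Az and at 17.6, 17.9 and 32.4 CPM in the double deletion. NCU06895, NCU03534 and NCU01417, with log2 fold changes of -2.31, -1.96 and -2.33, were each lost in 8 of the 12 fits. These were the fits without replicate 1 or 2 of either group and 4 of those without a WT or ∆set-7 library, with edgeR adjusted p up to 0.165, 0.206 and 0.127.

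The serine-threonine kinase gene stk-44 (NCU06583) fell from a level that was already below WT. It was at 2.25, 2.09 and 2.93 CPM in ∆hH2Az, at 0.910, 0.423 and 0.764 CPM in the double deletion and at 9.53, 6.39 and 6.52 CPM in WT. Its log2 fold change of -1.80 (edgeR adjusted p 0.0169, SE 0.331) was lost without ∆hH2Az replicate 1 or ∆hH2Az;∆set-7 replicate 2. The fall was of similar size in both tags: -1.73 in the 920 libraries and -1.79 between the replicate 3 libraries. NCU09429 (chromosome VII, 1149635 to 1152060), at -1.53 (edgeR adjusted p 0.0495, SE 0.332), was lost in 11 of the 12 fits and held only without ∆hH2Az replicate 3. Over all lower genes, 4 of 27 were called in each of the 12 fits, against 54 of the 94 higher genes, 48 of which lay near an end. Among the lower genes, 22, 17, 17 and 23 were lost without ∆hH2Az replicate 1, ∆hH2Az replicate 2, ∆hH2Az;∆set-7 replicate 1 and ∆hH2Az;∆set-7 replicate 2.

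**Figure D4:**
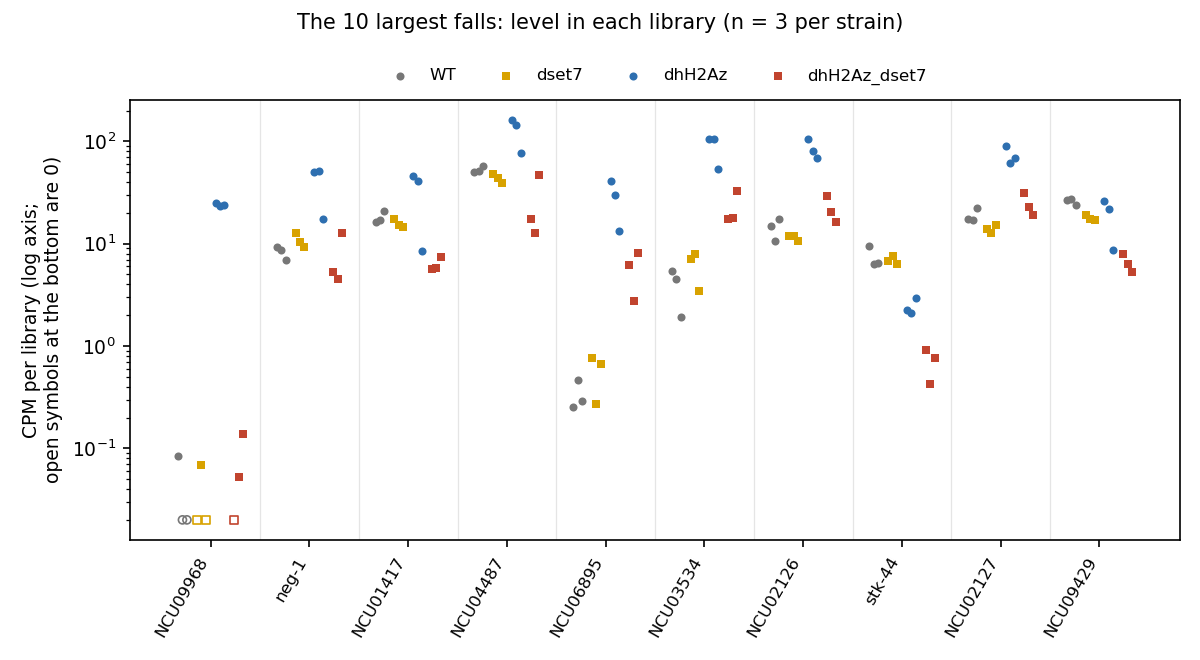
CPM (log axis) of the 10 largest falls, ranked among genes of at least 1 CPM, in each library of the 4 strains, 1 point per library. NCU09968 is at 23.2 to 25.2 CPM in ∆hH2Az and at most 0.139 CPM elsewhere, and for most other genes the replicate 3 points of the 2 groups lie closest together.

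Lists of genes by function held 129 tested genes, of which 6 (4.65%) were called, against 1.45% of all genes tested. The 6 include set-7, the gene deleted between the groups, and 4 of them were genes for polysaccharide-degrading enzymes. Of the 4 genes for PRC2 subunits, set-7 was the only one called. The change of suz12 was 0.51 (edgeR adjusted p 0.495, SE 0.235), with 10.6, 11.0 and 10.4 CPM in ∆hH2Az and 15.2, 17.2 and 12.99 CPM in the double deletion. eed, whose product binds the methylated histone tail, was at 0.478, 0.357 and 0.192 CPM and at 0.485, 0.634 and 0.347 CPM, while WT had 2.95, 3.23 and 3.00 CPM; the groups compared overlapped. Neither hH2Az nor swr-1, for the H2A.Z-exchanging ATPase, was called. None of 10 genes of heterochromatin and DNA methylation was called, at a median log2 fold change of -0.16, and among 7 other histone methyltransferase genes only set-6 was, at a median of 0.15. No gene was called of the 19 of light response and clock (median 0.00985), the 4 sugar transporters (median 0.24) or the 4 mating-type and heterokaryon genes (median -0.26). Beside the median of -0.006 over all genes tested, these list medians were small.

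Of 71 tested genes for polysaccharide-degrading enzymes, 3 were higher (gh61-5, gh3-3 and gh11-2) and 1, neg-1, was lower, at a list median of -0.0996. The called share was 5.63%, against 1.45% of all genes tested, and 8 of the 71 (11.3%) lay near an end, against 7.43%. gh11-2 (NCU07225), of the xylanase family, had 4 reads in ∆hH2Az and 36 in the double deletion. Its log2 fold change of 3.31 (edgeR adjusted p 0.0319, SE 0.795) was lost in the 8 fits that left out replicate 1 or 2 of any strain and was 4.47 without ∆hH2Az replicate 3. Genes of conidiation, the formation of asexual spores, were read as a check of the labelled mycelium. None of the 8 tested was called. Their summed level was 834, 840 and 202 CPM in ∆hH2Az and 468, 405 and 1090 CPM in the double deletion, against 114 to 184 CPM in WT, so the groups overlapped. con-8, a conidiation gene, was at 795, 800 and 133 CPM and at 404, 318 and 1012 CPM, and thus made up most of the sum. The part of this difference between libraries in the called genes was not tested.

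The same deletion in the strain with H2A.Z raised many of the same genes. The 2 contrasts have no library in common, but the fit of all 12 libraries shares its filter and its estimate of the spread between them. Of all genes tested, 85 (1.02%) were called higher in ∆set-7 against WT. Among the 94 genes that rose without H2A.Z, 51 were called higher there, which is 54.3% of the 94 and 60% of the 85. All 3 ∆set-7 libraries were above all 3 WT libraries for 77 of the 94 (81.9%), against 8.19% of all genes tested, and the log2 fold change was positive for 88 (93.6%), against 47.5%. The median log2 fold change of the 94 was 2.10 in ∆set-7 against WT. When each contrast was fitted on its own 6 libraries, 45 genes (0.552% of 8156 tested) were higher without H2A.Z and 115 (1.42% of 8074) with it. In these fits, which share no library, 30 genes were higher in both, 66.7% of the 45 and 26.1% of the 115, and 43 of the 45 were positive in ∆set-7 against WT. Near the ends 36 of 70 higher genes (51.4%) were called in ∆set-7, and farther in 15 of 24 (62.5%).

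The falls were not called in the strain with H2A.Z. None of the 26 lower genes other than set-7 was called in ∆set-7 against WT. Their log2 fold changes there were positive for 11 and negative for 15, with a median of -0.12. Neither of the strains in that contrast had NCU09968 above 0.0844 CPM. The difference between the contrasts was itself called for 1 of these 26 genes, NCU09553, at -1.81 (edgeR adjusted p 0.0439, SE 0.302), a call lost in 10 of the 12 fits and held only without replicate 3 of ∆hH2Az or of the double deletion.

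**Figure D5:**
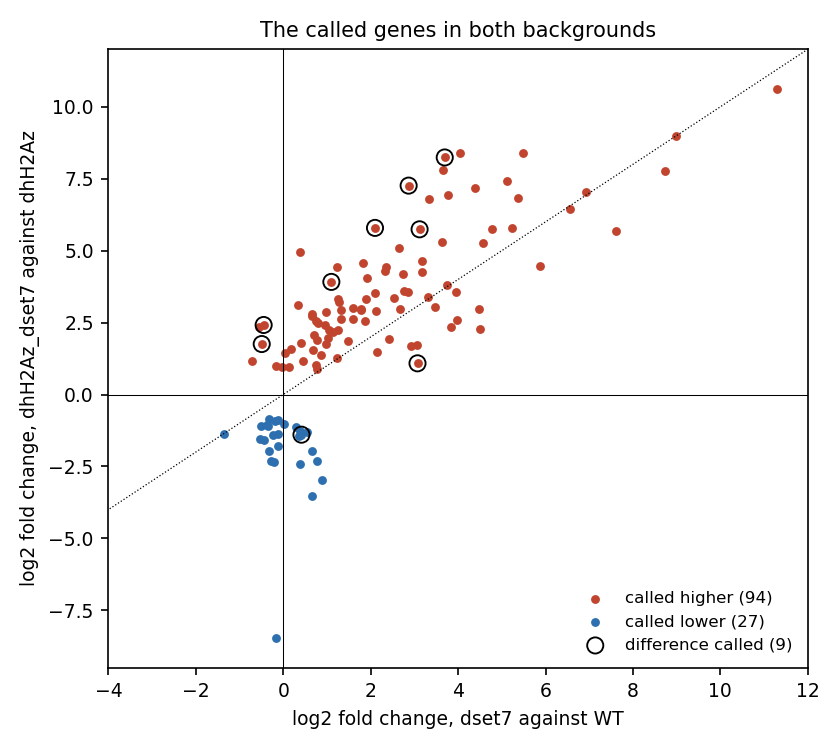
Log2 fold change of the called genes after loss of SET-7 without H2A.Z (∆hH2Az;∆set-7 against ∆hH2Az) plotted against that with H2A.Z (∆set-7 against WT), with genes called in the interaction marked. Of the higher genes 88 of 94 are positive on both axes, while the lower genes spread around 0 in the strain with H2A.Z.

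Whether the response to SET-7 loss differed between the backgrounds was tested for each gene as an interaction, which was called for 15 genes (0.179%). It was above 0 for 7, all of which rose without H2A.Z and lay near a chromosome end. NCU09634 had 1.10, 0.539 and 0.808 CPM in WT and 9.42, 9.36 and 12.9 CPM in ∆set-7, a smaller change from a higher start than in the strain without H2A.Z; its interaction was 4.54 (edgeR adjusted p 0.00263, SE 0.545). NCU09306, the first gene at the left end of chromosome VII (950 to 2274), was at 17.4, 16.8 and 12.3 CPM in WT, 0.430, 0.357 and 0.672 CPM in ∆hH2Az, 63.7, 71.1 and 64.2 CPM in ∆set-7 and 40.6, 27.9 and 13.6 CPM in the double deletion. Its interaction was 3.69 (edgeR adjusted p 0.0143, SE 0.525), a call lost in the 6 fits without replicate 1 or 2 of WT, of ∆hH2Az or of ∆set-7. NCU05901 and NCU05902, at the right end of chromosome VII, were the 2 genes with a called interaction among the 43 that rose without H2A.Z and were not called in ∆set-7. NCU05902 was at 7.93, 8.37 and 17.1 CPM in ∆hH2Az and at 55.8, 65.6 and 57.2 CPM in the double deletion, while WT had 80.9, 64.3 and 94.9 CPM and ∆set-7 had 46.7, 40.3 and 88.9 CPM. The WT and ∆set-7 values of this gene overlapped.

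The interaction was below 0 for 8 genes. NCU08570 was at 12.8, 13.1 and 15.2 CPM in ∆hH2Az and at 14.2, 16.2 and 15.5 CPM in the double deletion, and at 0.675, 1.15 and 0.289 CPM in WT and 8.54, 10.5 and 10.1 CPM in ∆set-7. NCU07511 was at 29.8, 26.9 and 24.5 CPM and at 15.9, 14.9 and 21.9 CPM, and at 1.94, 2.77 and 1.39 CPM and 14.3, 17.2 and 15.2 CPM. WT was thus the lowest strain for both, and the ∆hH2Az level was above that of ∆set-7. Their interactions were -3.64 (edgeR adjusted p 0.00898, SE 0.468) and -3.56 (edgeR adjusted p 0.0023, SE 0.362), and both were called in all 12 fits that left out a library. NCU14124 had the largest value, -5.33 (edgeR adjusted p 0.0346, SE 0.864), but was called in only 3 of these 12 fits, those without replicate 3 of ∆hH2Az, ∆set-7 or the double deletion, and was -5.97 without WT replicate 1. Over all genes the count of 15 was 8, 5 and 8 without WT replicate 1, 2 or 3 and 7, 7 and 116 without ∆hH2Az replicate 1, 2 or 3. It was 6 and 7 without ∆set-7 replicate 1 or 2 and 8 and 106 without ∆hH2Az;∆set-7 replicate 1 or 3.

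The remaining 34 genes that rose in ∆set-7 against WT were not called when H2A.Z was absent. Their median log2 fold change was 0.41 without H2A.Z and 2.12 with it, and 25 were positive in both. The difference between the contrasts was called for 6 of them. Of the 34, 6 (17.6%) lay within 200 kb of a chromosome end, against 7.43% of all genes tested. The count of genes called in ∆set-7 against WT, 86 with set-7, was 53, 43 and 44 without WT replicate 1, 2 or 3.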

How the data were processed

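Poly(A) RNA of mycelium was measured in 12 libraries, 3 for each of 4 strains. Per the file headers, the authors counted reads over exons of the NC12 annotation with featureCounts 1.6.2 and deposited the whole-number counts per gene. No option for strand, multi-mapping or overlapping genes appears there, so by that tool's defaults counts were unstranded and reads over several genes were dropped, which bears on the 2406 genes that overlap another. The submitters' processing notes also list BWA 0.7.15, SAMtools 1.3.1, HOMER 4.8, deepTools 3.3.1, Trim Galore and FastQC without their roles, and no source used here names the RNA-seq aligner. No per-sample column was left out, and the chromatin samples were not analysed here.

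Genes were matched by position to RefSeq's NC12 table (10397 of 10398; 1118 with a symbol). The names eed (NCU05300) and suz12 (NCU05460) rest on prior knowledge, and swr-1 (NCU09993) on the labels. Right chromosome ends were taken as the end of the last annotated gene. No genome sequence was used.

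After edgeR's filterByExpr by strain, 8372 genes were tested in 1 fit of all 12 libraries by strain, with TMM scaling, edgeR's 2-sided quasi-likelihood F-test with robust dispersion (edgeR 4.0.16, limma 3.58.1, R 4.3.3), and Benjamini-Hochberg adjustment over all tested genes with a threshold of 0.05. SEs are Wald errors from that fit. The fit was also run on simulated counts, drawn independently for each library and without a difference between tags. That run does not test the fit under the spread that the replicate 3 libraries bring, and its outcome is not given here. CPM used TMM-scaled library sizes; correlations used log2 CPM with a prior count of 2. The interaction is the log2 fold change without H2A.Z minus that with it. Genes with 1 to 3 reads in a group are given as a ratio of pooled reads with a 95% exact binomial interval. Without molecular identifiers, such intervals cover counting error only.

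Named genes are the 14 largest rises and 10 largest falls among called genes of at least 1 CPM on average in libraries whose groups did not overlap, the 3 largest interactions in each direction, the PRC2 and H2A.Z genes, called members of the lists, and the longest runs; others are stated as chosen after their values were seen or appear as neighbours. The comparison, the lists and these rules were chosen with earlier results of these data known. The alternatives comprised 3 other tests or filters (limma-voom, DESeq2 1.42.0 with its Wald test, a minimum of 5 CPM) and no filter, scaling by upper quartiles or by DESeq2 size factors, a block for the label tag or for the replicate number, only the strains compared, only the libraries tagged 920, each library left out, near-end distances of 100 and 300 kb, and runs without a gap. Grouping genes by product words was not possible, as the reference table holds no products.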

Additional observations from a re-analysis of the deposited data

Results flagged for a closer look

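The 15 genes below are listed because the effect of SET-7 loss differed between the strain without H2A.Z and the strain with it, by the edgeR interaction test at an adjusted p of 0.05. Values are log2 interactions, positive where the rise was larger without H2A.Z. Of the 15, 5 (NCU09634, NCU09633, NCU09304, NCU08570 and NCU07511) were called in all 12 fits that left out a library and 10 were not.

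Above 0, NCU09634 was at 4.54 and NCU09633, its neighbour, at 4.39 (edgeR adjusted p 0.0045, SE 0.518). NCU09306 was at 3.69. NCU05902 was at 2.86 (edgeR adjusted p 0.05, SE 0.487, lost in 9 fits), and NCU05901 at 2.25 (edgeR adjusted p 0.0168, SE 0.324, lost in 7). NCU09304 was at 2.81 (edgeR adjusted p 0.0023, SE 0.287), with 2.39, 2.04 and 2.64 CPM in ∆hH2Az and 36.3, 33.1 and 37.5 CPM in the double deletion, and 7.93, 6.70 and 10.05 CPM in WT and 18.0, 16.5 and 18.5 CPM in ∆set-7. NCU09632, which overlaps NCU09633, was at 2.62 (edgeR adjusted p 0.0248, SE 0.404, lost in 8).

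Below 0, NCU14124 was at -5.33, with 59.9, 52.6 and 12.95 CPM in ∆hH2Az and 18.9, 17.1 and 25.7 CPM in the double deletion, and NCU08570 and NCU07511 were at -3.64 and -3.56. NCU04690 was at -2.99 (edgeR adjusted p 0.0211, SE 0.444, lost in 9 fits) and NCU09856 at -2.42 (edgeR adjusted p 0.00985, SE 0.318, lost in 1). NCU09178 was at -1.99 (edgeR adjusted p 0.0102, SE 0.266, lost in 2); it rose in both backgrounds, from 11.9, 11.0 and 10.4 to 26.8, 19.6 and 24.2 CPM without H2A.Z and from 6.58, 6.70 and 6.06 to 59.9, 57.1 and 45.7 CPM with it. NCU09553 was at -1.81 (lost in 10) and ccg-1, a clock-controlled gene, at -1.30 (edgeR adjusted p 0.05, SE 0.222, lost in 9); ccg-1 was at 58.1 to 63.7 CPM in ∆hH2Az, 43.2 to 55.1 CPM in the double deletion, 120 to 132 CPM in WT and 221 to 273 CPM in ∆set-7.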

How the results depend on the processing

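No called gene changed sign in any setting. The groups did not overlap in any called gene and the settings reuse the same libraries, so a change of sign was unlikely in advance. Of the 121 calls, 32 higher and 2 lower genes were called in every setting. The count of 121 was 77 with at least 5 CPM, 292 by the DESeq2 Wald test, 48 from the 6 libraries alone (45 higher, 3 lower), 2478 from the 920 libraries and 62 to 473 with 1 library left out. The other settings gave 102 to 139. The split of 94 higher and 27 lower calls was 98 and 21 under upper-quartile scaling, 201 and 272 without ∆hH2Az replicate 3, and 151 and 211 without ∆hH2Az;∆set-7 replicate 3. For ∆set-7 against WT the count of 86 was 57, 159, 904 and 43 to 113 under at least 5 CPM, DESeq2, the 920 libraries and left-out libraries. The interaction count of 15 was 70 by DESeq2, 2167 in the 920 libraries and 5 to 116 with a library left out. The near-end share of 74.5% was 83.0% within 300 kb and 71.3% within 100 kb.

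The replicate numbers did not pair the libraries: deviations of same-numbered libraries correlated at 0.148, -0.22 and -0.104. With the replicate block the counts were 102, 76 for ∆set-7 against WT and 11 for the interaction; 77 of the 94 and 16 of the 27 genes were still called, while set-7, neg-1, NCU01417, NCU04487, NCU06895, NCU03534, mtr, NCU07495, gh11-2 and NCU09590 were not, with edgeR adjusted p from 0.0529 to 0.103.

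Uncalled genes near 0 changed sign, and the cause was not tested. ccg-6 was at -0.011 with no filter, -0.196 in the 920 libraries and -0.19 to 0.12 with a library left out. con-8 was at -0.015 with no filter, -1.15 in the 920 libraries, where it was called, and -0.67 to 0.32 with a library left out. cdt-1 was at -1.18 to 0.0855 with a library left out. het-c was at 0.012 with DESeq2 size factors, 0.037 with upper-quartile scaling, 0.027 with at least 5 CPM, 0.012 by DESeq2, 0.029 from the 6 libraries and -0.44 to 0.23 with a library left out.

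The replicate 3 libraries widen the spread: the common dispersion was 0.102 over 12 libraries and 0.0178 over those tagged 920. Fold changes of genes with few reads in ∆hH2Az are imprecise at this depth.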

Other observations

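Among the 83 tested genes within 25 kb of a chromosome end, the 3 with the highest mean CPM over the 6 libraries were not called, and in each of them replicate 3 went against replicates 1 and 2. NCU10040 (chromosome IV, 5939000 to 5940994) was at 5761, 5762 and 50.1 CPM in ∆hH2Az and at 504.2, 356 and 10585 CPM in the double deletion, against 17.3 to 23.5 CPM in WT and 189 to 229.9 CPM in ∆set-7. NCU09637 (chromosome IV, 8110 to 19545, which overlaps other genes) was at 268, 226 and 13.6 CPM and at 77.0, 76.6 and 2723 CPM. NCU09639 (chromosome IV, 19910 to 21754) was at 299, 286 and 7.20 CPM and at 17.3, 15.7 and 2515 CPM. In each, replicate 3 was the lowest library of ∆hH2Az and the highest of the double deletion. These genes were chosen by their level after values of these data were known, and no explanation was tested.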
